A study of Mus musculus with 16 samples.

Results

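The 10 genes described here encode amino acid transporters of the plasma membrane whose transcription is known to respond to stress: Slc7a5, Slc7a6, Slc7a11, Slc3a2, Slc7a1, Slc7a3, Slc38a1, Slc38a2, Slc1a4 and Slc1a5. They were named as a list of symbols, with no rule on their counts but with earlier results of these data known, and all 10 were found among the 36499 gene entries of the table. RNA from cardiac tissue of mice on normal chow was sequenced in 16 libraries, 4 for each of 4 genotypes. The genotypes, written dko, clpp, fgf21 and wt in the labels, are called double KO, Clpp KO, Fgf21 KO and wild type here. Clpp encodes the proteolytic subunit of the matrix protease ClpXP in mitochondria. Fgf21 encodes a secreted hormone that many tissues release under mitochondrial stress. Per the labels' protocols, floxed alleles were deleted in the whole body with a Cre driven by the β-actin promoter, for Clpp and for both genes together. The cells in which either loss acted are therefore not limited to the heart. How the single Fgf21 KO was made, the alleles and Cre status of the wild-type mice, strain, age and sex are not given in the labels used here. Since the labels also leave out which animal each library came from, the p-values refer to variation among these libraries, some of which may be technical.

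Cells that lack amino acids or carry damaged mitochondria phosphorylate the initiation factor eIF2, which slows translation while the transcription factor ATF4 is made in greater amount. ATF4 and its partners then bind C/EBP-ATF response elements at genes for amino acid synthesis and uptake, in what is called the integrated stress response. SLC7A5, SLC7A6 and SLC7A11 are light chains that reach the membrane only when bound to the heavy chain SLC3A2, while the SLC38, SLC1 and cationic SLC7A1 and SLC7A3 carriers work without it. The oxidative stress factor NRF2, which binds antioxidant response elements, is a further known activator of Slc7a11.

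Promoter sequence is shown for the pair of members whose start region held the core TGATGNAA of the C/EBP-ATF response element, since this is the sequence by which ATF4 is known to reach such genes. RefSeq windows on GRCm38.p6, running from 250 bases before to 50 bases after a transcript start, were at hand for 6 of the 10 members, as 8 windows. Both strands were searched. Slc7a11 and Slc1a4 held the core, which 3.97% of all 32817 windows of this length also held. Slc7a11 carried it on both strands within the 100 bases before its start, and Slc1a4 carried it on the reverse strand across its start, of which 10 bases are shown. Capitals mark the core, or TTGCATCA where it lies on the reverse strand, and both sequences are given 5′ to 3′ on the minus strand, along which the genes are read.
Slc7a11, chr3:50443614-50443713: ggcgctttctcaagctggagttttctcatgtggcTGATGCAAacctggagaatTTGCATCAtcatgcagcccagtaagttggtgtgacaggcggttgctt
Slc1a4, chr11:20332704-20332813: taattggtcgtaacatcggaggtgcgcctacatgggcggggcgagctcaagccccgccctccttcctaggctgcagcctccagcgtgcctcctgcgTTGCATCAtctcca
The core TGACNNNGC of the antioxidant response element was found on either strand in the windows of Slc7a1, Slc7a6 and Slc38a2, against 12.4% of all windows. No member held both cores. These matches are a description of letters and not of bound sites. No window was at hand for Slc7a5, Slc7a3, Slc38a1 or Slc1a5.

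Totals per library ran from 36260545 to 51820727 counts. Clpp had 267 to 293 counts in double KO hearts and 308 to 355 in Clpp KO hearts, against 1435 to 2636 in Fgf21 KO and 1728 to 2108 in wild-type hearts. Fgf21 had 0 counts in every double KO and Fgf21 KO library, 6 to 28 in Clpp KO and 0 to 5 in wild-type libraries. Clpp followed the labels. Fgf21 followed them in double KO against Clpp KO, but its counts in wild type were too few to set Fgf21 KO apart from wild type. The summed level of 6 cardiomyocyte markers was between 20300 and 43300 CPM in all libraries, with none of the markers at 0. Wild-type replicates 2 and 4 stood apart: 4 white fat markers summed to 37.9 to 121 CPM and 5 atrial markers to 6280 to 9880 CPM there, against 0.307 to 0.513 and 73 to 79.1 CPM in wild-type replicates 1 and 3. Transcripts of mitochondrial DNA took 56.1% to 60.8% of counts in double KO and 56.6% to 60% in Clpp KO libraries, against 29.2% to 38.8% in Fgf21 KO and 25.5% to 39.4% in wild-type libraries. Levels are therefore given as CPM, counts relative to the library total, scaled by TMM, a method that sets the bulk of genes equal between libraries.

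Per kilobase of the longest coding transcript, the most abundant of the 10 in the heart was Slc38a2, at a mean of 25.3 scaled CPM per kb over the 16 libraries. It was followed by Slc3a2 at 12.2, Slc1a5 at 7.78, Slc7a1 at 3.48, Slc7a6 at 2.71, Slc7a5 at 2.07 and Slc38a1 at 1.5 scaled CPM per kb. Slc1a4 came next at 0.557, and Slc7a3 at 0.112 and Slc7a11 at 0.0443 scaled CPM per kb were the scarcest. Neighbours in this order were not always apart: Slc7a6 exceeded Slc7a5 in 10 of 16 libraries, and Slc7a5 exceeded Slc38a1 in 8 of 16, which were the libraries without CLPP. The order therefore depended on genotype: Slc7a5 averaged 3.62 scaled CPM per kb in Clpp KO hearts, above Slc7a6 at 2.88 there, and 1.14 in wild-type hearts, below Slc7a6 at 3.01. The place of Slc1a5 owed most to wild type, with means of 5.85 scaled CPM per kb in double KO, 5.55 in Clpp KO and 6.53 in Fgf21 KO hearts, against 13.2 in wild-type hearts. Slc38a2 exceeded Slc3a2, and Slc38a1 exceeded Slc1a4, in 16 of 16. All 10 members passed the filter on low counts, but Slc7a11 rested on only 7 to 33 and Slc7a3 on 4 to 28 counts per library.

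By edgeR, Slc7a5 was the 1 member called higher in every comparison of hearts without CLPP against hearts with it. It encodes the light chain of the exchanger that brings leucine and other large neutral amino acids into cells, and lies on chromosome 8 from 121881150 to 121907694 (GRCm38, minus strand). Its level was 9.18, 10.7, 7.33 and 8.47 CPM in double KO hearts and 12.9, 13.2, 13.1 and 11.7 CPM in Clpp KO hearts. In Fgf21 KO hearts it was 2.76, 4.9, 2.78 and 3.34 CPM, and in wild-type hearts 3.35, 3.46, 2.88 and 6.37 CPM. Every library without CLPP lay above every library with it, and the wild-type library nearest to the gap was replicate 4, which is rich in fat and atrial transcripts. The group means were 8.92 ± 1.42 CPM in double KO, 12.7 ± 0.693 CPM in Clpp KO, 3.45 ± 1.01 CPM in Fgf21 KO and 4.01 ± 1.59 CPM in wild type (SD, n = 4 each).

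**Figure D1:**
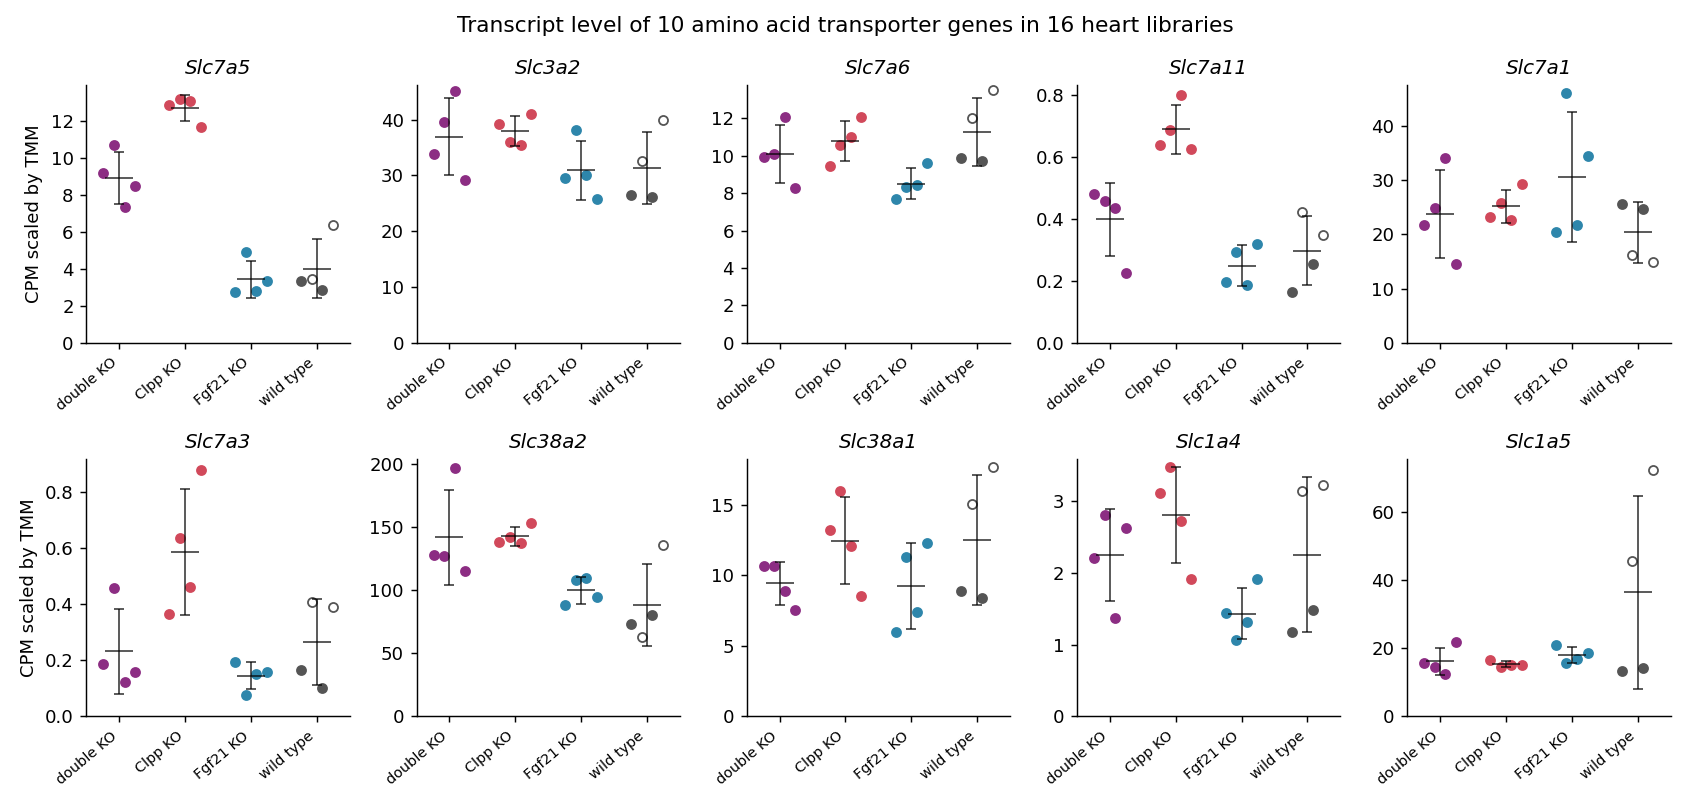
Levels of the 10 transporters, in CPM scaled by TMM, in the 4 libraries of each genotype. Each point is 1 library, bars show the mean ± SD, and open points are wild-type replicates 2 and 4; Slc7a5 lies between 7.33 and 13.2 CPM in all libraries without CLPP and between 2.76 and 6.37 CPM in the others.

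Relative to wild type, Slc7a5 in Clpp KO hearts rose 3.18-fold (95% interval 2.27 to 4.46), a log2 fold change of 1.67 ± 0.23 (SE) with an adjusted p of 0.000952 by edgeR's quasi-likelihood test. In double KO against Fgf21 KO, a comparison that shares no library with the first, it rose 2.59-fold (1.85 to 3.64), with log2 1.37 ± 0.23 and an adjusted p of 0.00406. Averaged over both Fgf21 genotypes the log2 fold change was 1.52 ± 0.163, with an adjusted p of 2.14e-05. These 3 calls held when any 1 of the 16 libraries was left out. With library totals alone they were 0.91, 0.69 and 0.80, where the medians of all genes were -0.793, -0.7 and -0.747. In double KO against wild type it rose by 1.16 ± 0.228 on the log2 scale, with an adjusted p of 0.017 that became 0.0587 without double KO replicate 2, and 0.357 (log2 0.26) with library totals alone. The gene Gm20388 overlaps Slc7a5 on the other strand, but 0% of the 31-base words of Slc7a5 transcripts occur in transcripts of another gene.

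With edgeR, Slc7a5 was the only member called, meaning past an adjusted p of 0.05, in each of the separate comparisons of CLPP loss. That was 1 of 10 in Clpp KO against wild type, where 1.63% of the 15255 genes tested were called. DESeq2 called 4 of 10 members there and voom 7 of 10, Slc7a5 among them. These tools called more genes in all, 841 of the 15255 by DESeq2 and 2815 by voom. In double KO against Fgf21 KO each tool called 1 of 10, where edgeR called 0.892% of all genes, DESeq2 209 genes and voom 370. In the average of both, edgeR called 3 of 10 members, namely Slc7a5, Slc38a2 and Slc7a11, all higher without CLPP, against 5.11% of all genes. Voom called 7 of 10 there, and 3282 of all 15255 genes. Double KO against wild type called 1 of 10 by edgeR, against 1.53% of all genes. DESeq2 called 3 of 10 there, with 966 of all genes, and voom 5 of 10, with 964. The edgeR counts behind these shares moved with single libraries: 249 genes in Clpp KO against wild type became 114 without Clpp KO replicate 1 and 949 without wild-type replicate 3. The 779 genes of the average became 413 and 1558 without the same libraries. The members' median log2 fold change was 0.31 in Clpp KO against wild type and 0.38 in double KO against Fgf21 KO, where the medians of all genes were -0.036 and -0.006.

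Read without a model, 3 members did not overlap between Clpp KO and wild type, all higher in Clpp KO: Slc7a5, Slc7a11 and Slc38a2. Among all genes 13.7% did not overlap in this comparison. Between double KO and Fgf21 KO, Slc7a5 and Slc38a2 did not overlap, against 5.8% of all genes. Between double KO and wild type the only such member was Slc7a5, against 9.85% of all genes.

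**Figure D2:**
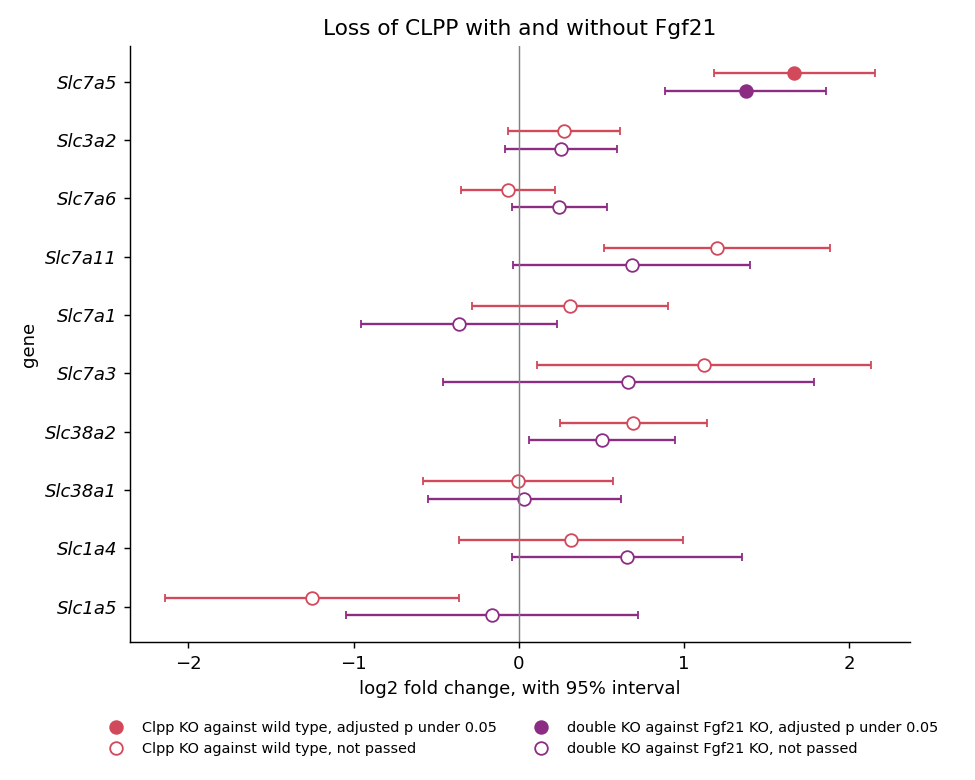
Log2 fold change on loss of CLPP, with 95% intervals, for Clpp KO against wild type and double KO against Fgf21 KO (4 libraries a group); filled points have an adjusted p under 0.05. Slc7a5, at 1.67 and 1.37, is the only filled row, and the Slc1a5 interval lies below 0 in Clpp KO against wild type.

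The heavy chain transcript was called in no comparison by edgeR with TMM. Slc3a2, on chromosome 19 from 8706882 to 8723369, had 33.8, 39.6, 45.2 and 29.2 CPM in double KO and 39.3, 35.9, 35.4 and 41 CPM in Clpp KO hearts. It had 29.5, 38.2, 30.1 and 25.8 CPM in Fgf21 KO and 26.5, 32.6, 26.2 and 39.9 CPM in wild-type hearts. The groups overlapped in every comparison. Its log2 fold change was 0.28 ± 0.159 in Clpp KO against wild type (adjusted p = 0.32) and 0.27 ± 0.113 averaged over both Fgf21 genotypes (adjusted p = 0.156, edgeR). The sign of these values depends on scaling for library composition, since library totals alone gave -0.502 and -0.466. Both were then called lower, while voom called both higher, at 0.48 (adjusted p = 0.00122) and 0.37 (adjusted p = 0.00206).

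The ratio of the light to the heavy chain transcript does not depend on the scaling of a library. Slc7a5 per kb stood at 21.7%, 21.7%, 13% and 23.2% of Slc3a2 per kb in double KO hearts and at 26.3%, 29.4%, 29.7% and 22.9% in Clpp KO hearts. In Fgf21 KO hearts it stood at 7.48%, 10.3%, 7.38% and 10.4%, and in wild-type hearts at 10.1%, 8.49%, 8.79% and 12.8%. The lowest ratio without CLPP, in double KO replicate 3, was just above the highest with it, in wild-type replicate 4. The ratio was chosen after the levels had been seen and is given without a test, and it says nothing of the amounts of protein.

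**Figure D3:**
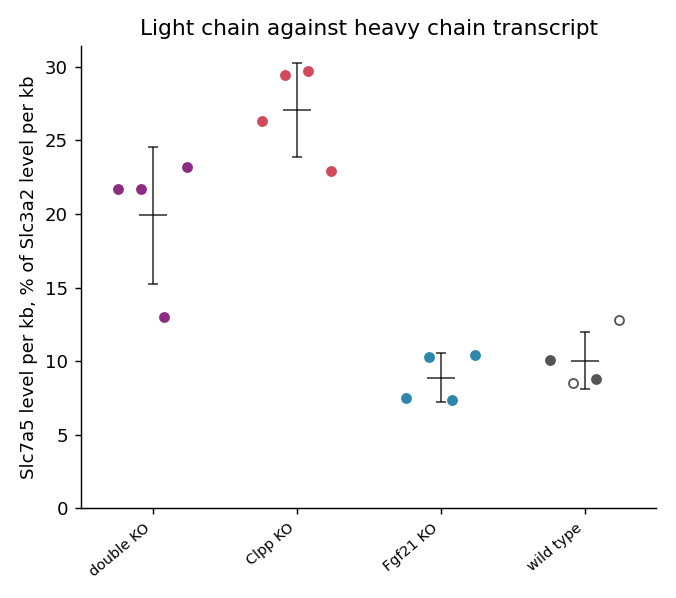
Slc7a5 as a percentage of Slc3a2, both as scaled CPM per kb, in each library, with mean ± SD and n = 4 a group; open points are wild-type replicates 2 and 4. Libraries without CLPP lie from 13% to 29.7% and those with it from 7.38% to 12.8%.

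Slc7a11 encodes the light chain that exports glutamate in exchange for cystine, the supply of cysteine for glutathione. It lies on chromosome 3 from 49892526 to 50443614 and is the member shown above with cores on both strands. It was scarce, at 0.48, 0.458, 0.435 and 0.224 CPM in double KO and 0.64, 0.689, 0.802 and 0.628 CPM in Clpp KO hearts. Fgf21 KO hearts had 0.196, 0.294, 0.188 and 0.319 CPM, and wild-type hearts 0.165, 0.423, 0.255 and 0.348 CPM. Clpp KO libraries stood above all libraries of the other 3 groups, which overlapped each other.

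Averaged over both Fgf21 genotypes, Slc7a11 rose with loss of CLPP by 0.94 ± 0.234 on the log2 scale (edgeR adjusted p = 0.0309). That call was lost, with adjusted p up to 0.0722, on leaving out Fgf21 KO replicate 1 or 3, Clpp KO replicate 1, 2 or 3, or double KO replicate 1, 2 or 3. It was also lost with no filter on low counts and with scaling by library totals or by totals outside mitochondrial DNA. In Clpp KO against wild type the log2 fold change was 1.20 ± 0.324 (adjusted p = 0.0726) and in double KO against Fgf21 KO 0.68 ± 0.338 (adjusted p = 0.728). An antisense gene, Gm37854, and processed pseudogenes lie within Slc7a11. Of its exonic 31-base words, 4.27% occur in other genes, with the largest share, 1.59%, in Tuba1a. A few of its 7 to 33 counts could therefore belong to other genes.

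Slc7a6, a light chain that exchanges cationic for neutral amino acids, was called in no comparison by edgeR with TMM. It lies on chromosome 8 from 106168857 to 106198706 and ranged from 8.27 to 12.1 CPM in double KO, 9.47 to 12.1 in Clpp KO, 7.68 to 9.64 in Fgf21 KO and 9.74 to 13.5 CPM in wild-type hearts. Its log2 fold change averaged over both Fgf21 genotypes was 0.09 ± 0.0948 (adjusted p = 0.555), and -0.647 with library totals alone, which called it lower (adjusted p = 0.000394). The Fgf21 KO libraries all lay below the wild-type libraries, at log2 -0.41 ± 0.134 (edgeR adjusted p = 0.538). It was the 1 member without overlap there, against 2.72% of all genes, and the value was -0.19 with wild type reduced to replicates 1 and 3.

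Slc38a2 encodes a sodium-coupled importer of glutamine, alanine and other small neutral amino acids, which is known to be induced by amino acid starvation. It lies on chromosome 15 from 96687392 to 96699730, beside its relative Slc38a1. Its level was 128, 127, 197 and 115 CPM in double KO hearts and 138, 142, 137 and 153 CPM in Clpp KO hearts. Fgf21 KO hearts had 88, 108, 110 and 94.2 CPM, and wild-type hearts 73, 63, 80.7 and 136 CPM. Libraries without CLPP were higher than those of both other groups except for wild-type replicate 4, which reached the level of the knockouts.

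Averaged over both Fgf21 genotypes, Slc38a2 rose with loss of CLPP by 0.60 ± 0.148 on the log2 scale, a 1.51-fold change (edgeR adjusted p = 0.0306). The call was lost, with adjusted p up to 0.0711, without Fgf21 KO replicate 1 or 4, any 1 of the 4 Clpp KO replicates, or double KO replicate 3. The separate log2 fold changes were 0.69 ± 0.21 in Clpp KO against wild type (adjusted p = 0.1) and 0.50 ± 0.209 in double KO against Fgf21 KO (adjusted p = 0.631). Without wild-type replicate 4 the first became 0.98, with an adjusted p of 0.00862. Double KO against wild type gave 0.68 ± 0.21 (adjusted p = 0.101), and 0.97 with an adjusted p of 0.00966 without wild-type replicate 4. By library totals alone Slc38a2 was lower in each of these comparisons, at -0.119 in the average, where the median of all genes was -0.747.

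Slc38a1, which encodes a related glutamine importer, was called in no comparison by edgeR with TMM. It lies on chromosome 15 from 96571418 to 96642913 and ranged from 7.57 to 10.7 CPM in double KO, 8.55 to 16 in Clpp KO, 5.99 to 12.3 in Fgf21 KO and 8.41 to 17.7 CPM in wild-type hearts. Its average log2 fold change on loss of CLPP was 0.02 ± 0.193, with a 95% interval of -0.395 to 0.424 that leaves room for a change of that size either way. Voom called it higher, at 0.39 (adjusted p = 0.0441), and library totals alone called it lower, at -0.724 (adjusted p = 0.0114). Of its exonic 31-base words, 6.94% occur in other genes, chiefly 4632432E15Rik.

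The cationic carriers import arginine, lysine and ornithine. Slc7a1, the broadly expressed one, on chromosome 5 from 148327410 to 148399904, ranged from 14.5 to 34.1 CPM in double KO, 22.6 to 29.3 in Clpp KO, 20.4 to 46 in Fgf21 KO and 14.9 to 25.6 CPM in wild-type hearts. Its average log2 fold change on loss of CLPP was -0.03 ± 0.197, with an interval of -0.445 to 0.393, and -0.733 with library totals alone. The separate values had opposite signs, and neither was called by edgeR. They were 0.31 ± 0.279 in Clpp KO against wild type (adjusted p = 0.522) and -0.36 ± 0.279 in double KO against Fgf21 KO (adjusted p = 0.844). Fgf21 KO against wild type gave 0.59 ± 0.279 (edgeR adjusted p = 0.538). Slc7a3, known chiefly from brain and placed on chromosome X from 101079210 to 101086020, was near the limit of detection. It had 0.187, 0.458, 0.124 and 0.16 CPM in double KO, 0.366, 0.638, 0.462 and 0.88 CPM in Clpp KO, 0.196, 0.0784, 0.15 and 0.159 CPM in Fgf21 KO, and 0.165, 0.407, 0.102 and 0.389 CPM in wild-type hearts. The Clpp KO values were the highest as a group but overlapped those of double KO and wild type. Its log2 fold change of 1.12 ± 0.478 in Clpp KO against wild type did not pass the test (adjusted p = 0.197), and neither did the average of 0.89 ± 0.357 (adjusted p = 0.136, edgeR).

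Slc1a4 and Slc1a5 encode exchangers of small neutral amino acids, serine and alanine for the first and glutamine for the second. Slc1a4, on chromosome 11 from 20302180 to 20332713, ranged from 1.37 to 2.8 CPM in double KO, 1.92 to 3.47 in Clpp KO, 1.06 to 1.91 in Fgf21 KO and 1.17 to 3.22 CPM in wild-type hearts. Its average log2 fold change on loss of CLPP was 0.49 ± 0.229 (edgeR adjusted p = 0.197), and 0.86 (adjusted p = 0.0248) with wild type reduced to replicates 1 and 3. With library totals alone it was -0.27. Wild-type replicates 2 and 4 were its highest wild-type libraries.

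Slc1a5, on chromosome 7 from 16781340 to 16798274, showed a wild-type group split in a pair of levels. It had 15.8, 14.5, 12.5 and 21.9 CPM in double KO, 16.6, 14.6, 15.1 and 15 CPM in Clpp KO, and 21.1, 15.6, 17 and 18.6 CPM in Fgf21 KO hearts. Of the wild-type hearts, replicates 1 and 3 had 13.5 and 14.1 CPM, while replicates 2 and 4 had 45.8 and 72.5 CPM. The first wild-type pair lay within the range of the knockouts and the second stood far above it. The log2 fold change against wild type was -1.17 ± 0.417 in double KO (adjusted p = 0.133), -1.25 ± 0.417 in Clpp KO (adjusted p = 0.13) and -1.01 ± 0.413 in Fgf21 KO (adjusted p = 0.538). These became 0.22, 0.16 and 0.40 with wild type reduced to replicates 1 and 3, so the sign of each rested on replicates 2 and 4. In Clpp KO against wild type the adjusted p was 0.0397 without wild-type replicate 1 and 0.0364 without replicate 3, and in double KO against wild type 0.0394 and 0.0387.

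Summed markers of several other cell types were high in those same libraries, and the sums of some others were low. Besides the white fat and atrial markers given above, wild-type replicates 2 and 4 had summed mesothelial markers of 23.5 to 26.4 CPM, against 4.47 to 4.61 CPM in replicates 1 and 3. Schwann cell markers summed to 12.3 to 17.7 CPM, against 6.47 to 6.78, macrophage markers to 82.2 to 98.8 CPM, against 53.9 to 55.4, and fibroblast markers to 442 to 711 CPM, against 370 to 376. The endothelial sum went the other way, at 308 to 423 CPM against 432 to 437. So did the mural sum, at 414 to 505 against 526 to 546, and the ventricular sum, at 5200 to 9070 against 9430 to 10100. Single markers did not all follow these sums. Of the endothelial list, Cdh5 and Kdr were lower in both replicates, Pecam1, Cldn5 and Emcn were higher in both, and Tek was split. Of the mural list, Rgs5, Pdgfrb and Kcnj8 were lower, but Myh11 was higher, at 115 and 183 CPM against 37.7 and 37.6. Adgre1 (macrophage), Lum (fibroblast) and Wt1 (mesothelial) were lower in wild-type replicate 4 than in replicates 1 and 3. Mesothelial markers also reached 24.2 CPM in Fgf21 KO replicate 4, and macrophage markers 94.8 CPM in Clpp KO replicate 2. Slc1a5 was at 18.6 and 14.6 CPM in those libraries. Adipoq, an adipocyte hormone, was at 7.98 CPM in wild-type replicate 2, at 21.5 CPM in replicate 4 and at no more than 2.29 CPM in the remaining libraries. The part of these cell types in the Slc1a5 result was not tested. In bulk tissue, fewer cells of a type and less RNA per cell cannot be told apart. Wild-type replicates 2 and 4 both exceeded replicates 1 and 3 for 8 of the 10 members (80%) and for 32.8% of all genes. Slc7a1 was the 1 member for which both lay below. Slc7a5 in Clpp KO against wild type was log2 2.04 (adjusted p = 0.00019) when wild type was reduced to replicates 1 and 3, larger than with all 4. Those replicates were the most alike pair of libraries.

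**Figure D4:**
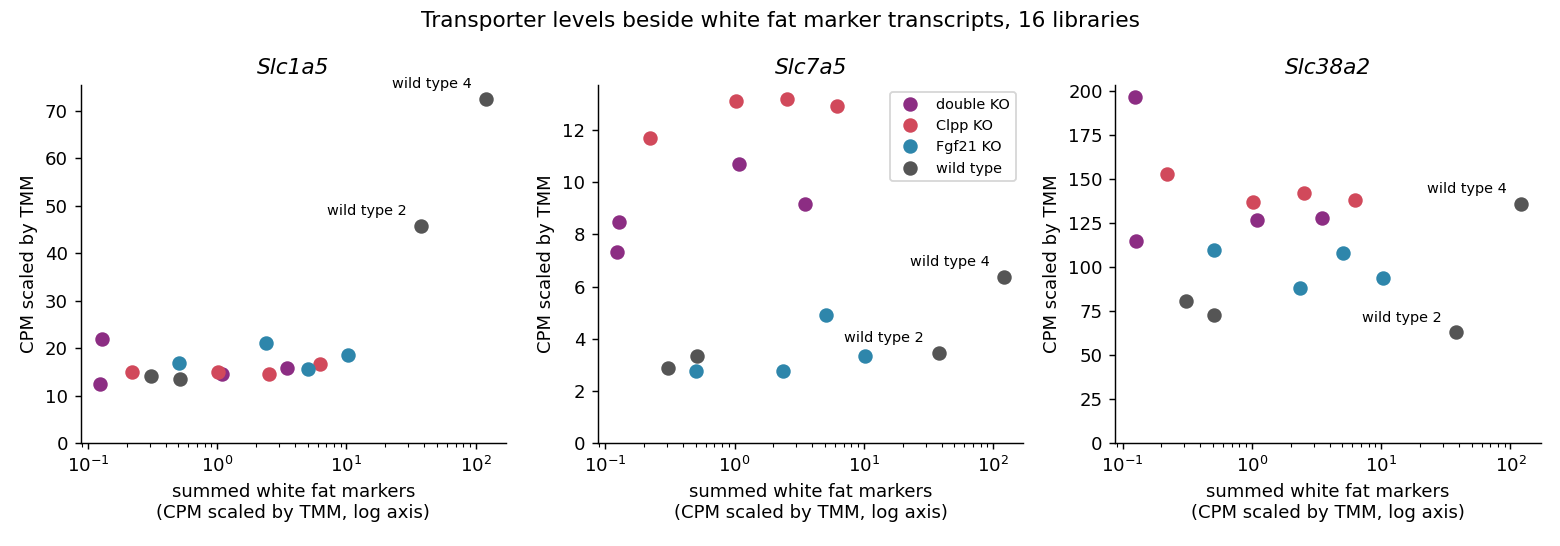
Levels of Slc1a5, Slc7a5 and Slc38a2 against the summed level of 4 white fat markers, both in CPM scaled by TMM with a log horizontal axis; each point is 1 of 16 libraries. Slc1a5 reaches 45.8 and 72.5 CPM only in the labelled wild-type libraries and stays at or below 21.9 CPM elsewhere, while Slc7a5 is highest in Clpp KO libraries, where these markers sum to 0.22 to 6.22 CPM.

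Loss of FGF21 gave no call for any member, with or without CLPP. In Fgf21 KO against wild type 0 of 10 members were called by edgeR, DESeq2 or voom, where edgeR called 0.0459% of all genes. By edgeR 2 of 10 had an unadjusted p under 0.05, against 9.17% of all genes. In double KO against Clpp KO 0 of 10 were called by edgeR, DESeq2 or voom, where edgeR called 0.059% of all genes. By edgeR 3 of 10 had an unadjusted p under 0.05, against 3.55% of all genes. Slc7a5 was -0.22 ± 0.229 on the log2 scale in the first comparison (adjusted p = 0.718). Its sign turned, to 0.155, with wild type reduced to replicates 1 and 3.

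In double KO against Clpp KO the 3 with an unadjusted p under 0.05 were all lower in the double KO. Slc7a5 was lower by log2 -0.51 ± 0.224 (unadjusted p = 0.0355), Slc7a11 by -0.78 ± 0.327 (unadjusted p = 0.0296) and Slc7a3 by -1.31 ± 0.5 (unadjusted p = 0.0188), and the edgeR adjusted p was 0.994 for each. The Slc7a5 and Slc7a11 libraries of double KO lay wholly below those of Clpp KO, and 5.78% of all genes did not overlap in this comparison. Slc38a2 averaged 142 CPM in both groups, with an SD of 37.3 in double KO and 7.47 in Clpp KO.

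The interaction asks whether loss of FGF21 acted differently with and without CLPP. It called 0 of 10 members by edgeR, with 0 at an unadjusted p under 0.05 and 0 called by DESeq2 or voom. Among all genes edgeR called 0%, with 299 genes at an unadjusted p under 0.05, DESeq2 called 3 and voom 1. For Slc7a5 it was -0.30 ± 0.32 on the log2 scale, with a 95% interval of -0.974 to 0.382. The smaller rise of Slc7a5 in double KO against Fgf21 KO than in Clpp KO against wild type was therefore not shown to be a difference.

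Over the 16 libraries, the genes whose log2 level ran most like that of Slc7a5 were Mthfd2, a mitochondrial folate enzyme, with Pearson's r of 0.943, Mafg, a small Maf partner of NRF2, with 0.941, and Asns, asparagine synthetase, with 0.939. Psat1, a serine synthesis enzyme, with 0.935 and Atf5, a stress transcription factor, with 0.929 came next. These values share the same libraries and the same 4 group means. After each group's mean was taken off, r was 0.466 for Mthfd2, 0.639 for Mafg, 0.476 for Asns, 0.565 for Psat1 and 0.455 for Atf5. Among the other members the closest were Slc7a11, with r of 0.827 and rank 88 of all tested genes, Slc38a2 with 0.757 and rank 185, and Slc3a2 with 0.681 and rank 390. Slc1a5 was the least alike, with r of -0.194.

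Genes known to belong to the integrated stress response were also called, and the difference from the transporters was not tested. Of 22 such factors and enzymes, Clpp KO against wild type called 9 by edgeR, where 1.63% of all genes were called. Double KO against Fgf21 KO called 5, against 0.892% of all genes. The average called 12, against 5.11% of all genes, and all these calls were higher without CLPP. Asns rose by log2 3.10 ± 0.321 and 2.34 ± 0.322 in these separate comparisons, Mthfd2 by 3.84 ± 0.42 and 3.31 ± 0.423, and Atf5 by 2.07 ± 0.227 and 1.26 ± 0.222. Slc7a5, at 1.67 and 1.37, lay between Atf5 and the list's median of 0.86 in the first and above both Atf5 and the median of 0.434 in the second. The transcript of Atf4 itself, whose product is controlled mainly in translation, was 0.19 ± 0.211 in Clpp KO against wild type (adjusted p = 0.616). In double KO against Clpp KO the list's median was -0.575, with 0 called. There 10 of the 22 had an unadjusted p under 0.05 by edgeR, against 3.55% of all genes.

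Among other amino acid transporters 1 was called by edgeR on loss of CLPP, in the average alone. Of 43 further carriers of the SLC1, SLC6, SLC7, SLC36, SLC38 and other families, 30 passed the filter on low counts. With edgeR, Clpp KO against wild type called 0 of these 30, against 1.63% of all genes, and the median log2 fold change was -0.118. An unadjusted p under 0.05 was found for 2 of the 30, against 21.3% of all genes. Double KO against Fgf21 KO also called 0, with a median of -0.102, and 0 had an unadjusted p under 0.05, against 7.09% of all genes. Double KO against wild type called 0 too, with a median of -0.18. There 11 of the 30 had an unadjusted p under 0.05 by edgeR, against 22.8% of all genes. The average called 1 of the 30, against 5.11% of all genes. It was Slc38a7, a lysosomal exporter of glutamine, at 0.29 ± 0.0746 (adjusted p = 0.0352). The difference between both sets of transporters was not tested.

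Genes that sense amino acids for GCN2 and mTORC1 had a median log2 fold change of 0.078 in Clpp KO against wild type. Of 26 tested, the 1 called was Lars, the leucyl-tRNA synthetase that also serves as a leucine sensor, which rose by 0.57 ± 0.127 (edgeR adjusted p = 0.0308). With edgeR 0 of the 26 were called in double KO against Fgf21 KO, with 1 at an unadjusted p under 0.05, and Lars was at 0.18 ± 0.127 (adjusted p = 0.819). In the average, Lars rose by 0.38 ± 0.09, while the arginine sensor Castor1 fell by 0.63 ± 0.162 and its relative Castor2 fell by 0.34 ± 0.0818. Of 17 genes of NRF2, cystine use and glutathione, with a median of 0.146, 3 rose in Clpp KO against wild type: Gclm and Gclc, which encode the subunits of the enzyme that joins glutamate and cysteine, by 1.72 ± 0.36 and 0.71 ± 0.158, and Txnrd1, a thioredoxin reductase, by 0.80 ± 0.16. Likewise 0 of the 17 were called by edgeR in double KO against Fgf21 KO, with 5 at an unadjusted p under 0.05, a median of 0.095 and Gclc at 0.68 ± 0.158 (adjusted p = 0.0585). In the average 6 of the 17 rose and 1 fell. The shares of all genes called, 1.63%, 0.892% and 5.11% in these comparisons, apply here too. In double KO against Fgf21 KO 7.09% of all genes had an unadjusted p under 0.05. Double KO against wild type called 5 of these 17 higher by edgeR, against 1.53% of all genes called. There 9 of the 17 had an unadjusted p under 0.05, against 22.8% of all genes. Of the 26 sensing genes it called 1, which was lower, with 6 at an unadjusted p under 0.05. Slc7a11, which supplies the cystine of this pathway, had its largest difference in Clpp KO against wild type, at 1.20 and short of the threshold.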

How the data were processed

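Total RNA of mouse cardiac tissue was made into 16 libraries with a stranded mRNA kit, per the labels' protocols. The authors deposited counts per gene as whole numbers, in 1 table for all libraries. Per the submitters' processing notes, fastp 0.21.0 and kallisto 0.46.1 were used with GRCm38.p6, as were edgeR 3.32.1, DESeq2 1.30.1 and R 4.0.3. kallisto estimates need not be whole, and neither the rounding nor any use of strand in counting is stated in the labels. Reads shared by near-identical copies can move counts between genes.

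Counts were tested as deposited in R 4.3.3 with edgeR 4.0.16: filterByExpr (count minimum 10, total minimum 15) kept 15255 genes, libraries were scaled by TMM (factors 0.674 to 1.83), and 1 robust quasi-likelihood model of genotype took in all 16 libraries (residual degrees of freedom 12). The 7 comparisons were two-sided, with p-values adjusted over all genes tested by Benjamini and Hochberg and called under 0.05. Levels are CPM on TMM-scaled totals. Per kb levels used the longest protein-coding transcript of GENCODE M21 on GRCm38, which also gave coordinates. Pearson correlations with Slc7a5 used log2 CPM with a prior count of 2.

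The members and lists were chosen with earlier results of these data known. Named were all members, the 5 genes most like Slc7a5, some cell type markers and, from each list, some of the called genes with the smallest p (at most 4 per comparison). Atf4 was named after its values were seen. Trib3, Phgdh and other called list genes are counted, but their values are not given, although some were among the 4 smallest p of their list. Alternatives were RLE scaling, library totals, no filter, DESeq2 1.42.0, limma 3.58.1 voom with quality weights, a replicate block, wild type reduced to replicates 1 and 3, and each library left out. Scripts were tested on simulated counts. Wild-type replicates 1 and 3 were the most alike pair (Spearman correlation 0.9971) and were kept as separate libraries. They differed by more than sampling noise, with a chi-square of 6.09 per degree of freedom, but other same-genotype pairs had 25.4 to 451. Whether they came from different animals is not given, so wild type may hold fewer than 4 animals. Adjusted p-values with wild type reduced to these replicates rest on this unusually alike pair.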

Additional observations from a re-analysis of the deposited data

Results flagged for a closer look

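In 2 of 40 groups of 4 libraries (10 members in 4 genotypes) 1 library lay far from the other 3 by Dixon's 95% criterion, which sets the gap to the nearest library against the group's whole range. Chance gives about 1 in 20. Slc7a5 was at 6.37 CPM in wild-type replicate 4, where the other 3 wild-type libraries had 2.88 to 3.46 CPM. That library also had the highest summed white fat markers, 121 CPM, and the highest summed brown fat markers, 71.6 CPM. Brown fat markers summed to 18.1 CPM in wild-type replicate 2 and to no more than 27.5 CPM in any knockout library. White fat markers summed to 37.9 CPM in wild-type replicate 2, where Slc7a5 was at 3.46 CPM. The part of either marker set in the value was not tested. Slc38a2 was at 197 CPM in double KO replicate 3, where the other double KO libraries had 115 to 128 CPM.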

How the results depend on the processing

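RLE scaling and no filter kept every count of members called within 1.5 times. Library totals alone called 5 members for Clpp KO against wild type, 3 for double KO against Fgf21 KO, 6 for the average and 6 for double KO against wild type, all of them lower apart from Slc7a5. The medians of all genes were then -0.793, -0.7, -0.747 and -0.92 in these comparisons. Slc7a5 was then 0.91, 0.69, 0.80 and 0.26, the last no longer called. Signs turned for Slc3a2 (-0.502, -0.431 and, in the average, -0.466), Slc38a2 (-0.042, -0.195, -0.119 and, in double KO against wild type, -0.21), and in the average for Slc7a6 (-0.647), Slc38a1 (-0.724) and Slc1a4 (-0.27). Against wild type, DESeq2 called 3 members in double KO and 4 in Clpp KO, and voom called 5 and 7. Voom also called 7 in the average and gave Slc1a5 against wild type as 0.136 in double KO, 0.088 in Clpp KO and 0.286 in Fgf21 KO. Wild type reduced to replicates 1 and 3 called 2 members in double KO and 2 in Clpp KO, with Slc1a5 at 0.224 in double KO, 0.156 in Clpp KO and 0.401 in Fgf21 KO, and Slc7a5 at 0.155 in Fgf21 KO. After the data were seen, wild-type replicates 1 and 3 were summed (2 members called in each of those comparisons, average Slc7a1 0.033 and Slc38a1 -0.052) and libraries were scaled by totals outside mitochondrial DNA (average Slc38a1 -0.066). The cause of these shifts was not tested. Leaving out 1 library gave 0 to 2 members for double KO and 1 to 2 for Clpp KO against wild type, and 1 to 3 for the average. It gave average values of -0.064 to 0.122 for Slc38a1 and -0.136 to 0.106 for Slc7a1, and -0.432 to 0.093 for Slc7a5 in Fgf21 KO against wild type.

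Replicate numbers did not pair the libraries: of 24 same-numbered pairs, 4 had deviations with r above 0.1 (range -0.228 to 0.364), and 3 of 16 libraries were closest to their own number. With a replicate block, 1 member was called in Clpp KO against wild type and 2 in the average, where Slc7a11 was 0.97 (adjusted p = 0.0501). Genes called in Clpp KO against wild type were 249, against 146 with the block, 159 with reduced wild type, 562 with summed replicates, 841 by DESeq2, 2815 by voom and 11933 by library totals. In the average they were 779, against 515 with the block, 1321 summed, 1528, 3282 and 13316. Double KO against Fgf21 KO had 136, against 241 with reduced wild type, 209 by DESeq2, 370 by voom and 10858 by library totals. Double KO against wild type had 233, against 148 with reduced wild type, 821 summed, 966 by DESeq2, 964 by voom, 655 by totals outside mitochondrial DNA and 13124 by library totals. Loss of FGF21 had 9 in double KO against Clpp KO (6 with the block, 15 with reduced wild type, 35 by DESeq2, 41 by voom) and 7 in Fgf21 KO against wild type (34 by DESeq2, 111 by voom). Leaving out 1 library moved these counts by over 1.5 times for Clpp KO against wild type (114 to 949, without wild-type 1, 3 or 4 or any Clpp KO replicate) and double KO against wild type (129 to 1116, without wild-type 1, 3 or 4 or any double KO replicate). It did so for the average too (413 to 1558, without wild-type 1 or 3, Fgf21 KO 1 or 3, any Clpp KO replicate, or double KO 1 or 2). By totals outside mitochondrial DNA, 131 were higher and 115 lower for Clpp KO against wild type, against 165 and 84 by TMM, 127 and 528 for double KO against wild type, against 160 and 73, and 289 and 734 in the average, against 432 and 347. By library totals alone 95 were higher and 11838 lower for Clpp KO against wild type.

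Slc7a11 and Slc7a3 rest on few counts, with 10 or more in 14 and 8 libraries, so their intervals are wide. Fat and atrial transcripts differed between libraries, most of all within wild type.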
